A study of Mus musculus with 11 samples.

Results

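The genes described here are 35 genes of fatty acid uptake and oxidation in the heart. They are a list of named genes of this pathway, taken from the count table by their symbols, and all 35 were found among its 55421 genes. RNA was sequenced from the hearts of 11 female C57BL/6J mice, all 8 weeks old, in 3 groups. Myocardial infarction (MI) was caused in 8 mice by tying off the left anterior descending (LAD) artery for good, and the infarct with its border zone was collected on day 3. Of these, 4 mice (A105, A127, A128 and A129) received DMSO, the solvent, and 4 mice (A116, A117, A119 and A120) received GI254023X, an inhibitor of the metalloprotease ADAM10 (A10i), at 100 mg/kg, in both cases from osmotic minipumps. The other 3 mice (S1, S2 and S3) were sham-operated, are labelled as given DMSO, and gave healthy heart tissue. The comparisons ask how the transcripts of this pathway stand after MI, and whether they stand differently under A10i. No sham mouse received A10i in these libraries, so that the drug is seen in infarcted tissue only.

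The adult heart burns mainly long-chain fatty acids. Lipoprotein lipase releases them from circulating triglycerides, and CD36 and fatty acid transport proteins help them into the cardiomyocyte, where FABP3 carries them. Acyl-CoA synthetases activate them, and the carnitine shuttle moves the acyl group into the mitochondrion. There beta-oxidation shortens the chain in a repeated cycle of dehydrogenation, hydration, dehydrogenation and thiolysis. The nuclear receptor PPAR alpha activates many of these genes, and PDK4 inhibits pyruvate dehydrogenase and thereby favours fatty acids over glucose.

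In DMSO mice, Pdk4 and Ucp3 rose and Ppara fell against sham, and the other 32 genes did not pass the threshold. In A10i mice, Pdk4 rose and Ppara, Acsl1 and Cpt2 fell against sham. Among all genes tested, 9.6% fell and 12.9% rose in DMSO mice, and 9.11% fell and 13.7% rose in A10i mice. Between A10i and DMSO mice none of the 35 genes passed, nor did any of the 16792 genes in the same edgeR test. This absence belongs to the edgeR test. DESeq2, another test, called 123 of 18151 genes lower and 104 higher at the same threshold, with 0 of the 35 genes in either direction. The paper, which used DESeq2, also reported genes changed in both directions in this comparison.

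The values are normalized counts, which are the deposited raw counts divided by the scale of their library, that is its TMM-corrected size over the average of all 11 libraries. Total counts per library lay between 21702623 and 29511768, and the raw count of a member in a library lay between 81 and 199216. Each comparison was tested with edgeR's quasi-likelihood test over all genes that passed its filter on low counts, with Benjamini-Hochberg adjustment over all of them. A gene was called higher or lower at an adjusted p-value under 0.01. All 35 genes passed the filter in each comparison. The 2 comparisons with sham share the same 3 sham mice.

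Marker transcripts of several cell types differed between the groups. The level of 16 sarcomere transcripts, as a geometric mean on the TMM scale, was 60.9 to 81.6% of the sham mean in DMSO mice and 60.5 to 83.2% in A10i mice, and 98.8 to 101.0% in the sham mice themselves. Of the 16, 5 fell and 0 rose in each comparison with sham, with medians of -0.44 (DMSO) and -0.40 (A10i) on the log2 scale. The 16 moved unequally, and such differences between them enter the sarcomere scale used below. In DMSO mice Tcap had 11710 to 15700 normalized counts against 45640 to 49580 in sham, whereas Actn2 had 56910 to 69580 against 51890 to 54640. Of 10 calcium handling genes, 4 fell in DMSO and 1 in A10i mice. The summed normalized counts of 10 neutrophil markers were 44.9 to 77.5 in sham, 2252 to 4582 in DMSO and 405 to 1549 in A10i mice. Those of 10 macrophage markers were 9180 to 10040, 15500 to 26040 and 19830 to 37210 in the same order, and those of 10 fibroblast markers 31900 to 34430, 52040 to 167900 and 128300 to 233600. For 10 endothelial markers the sums were 25850 to 26130, 20880 to 24910 and 24740 to 27710. White and brown adipocyte markers summed to 559 to 898, 945 to 1259 and 956 to 2072, skeletal muscle markers to 86.4 to 122, 102 to 250 and 143 to 182, and 4 atrial markers to 2681 to 5815, 12140 to 42740 and 13260 to 24810. Nppa, which is also known to rise in stressed ventricle, made up most of the atrial sums (2393 to 5192, 11810 to 40520 and 12250 to 22740), and Cidea most of the adipocyte sums in sham and DMSO mice (466 to 570 and 730 to 980, with 494 to 760 in A10i mice). The atrial marker Myl4 had 100 to 345 normalized counts in sham, 165 to 1480 in DMSO and 588 to 1203 in A10i mice. Myl7 had 66.4 to 220, 98.7 to 579 and 349 to 906 in the same order, and Sln 3.82 to 57.7, 62.1 to 157 and 72.8 to 286. The adipocyte marker Elovl3 never exceeded 2 counts and Ucp1 never exceeded 5. Transcripts of the mitochondrial genome took 21.5 to 22.2% of the counts in sham, 14.8 to 18.6% in DMSO and 15.7 to 17.9% in A10i mice. The part of these shifts in the values of the 35 genes was not tested, except that the genes were also measured relative to the sarcomere transcripts. In such bulk tissue, fewer cardiomyocytes and less RNA per cardiomyocyte cannot be told apart.

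**Figure D1:**
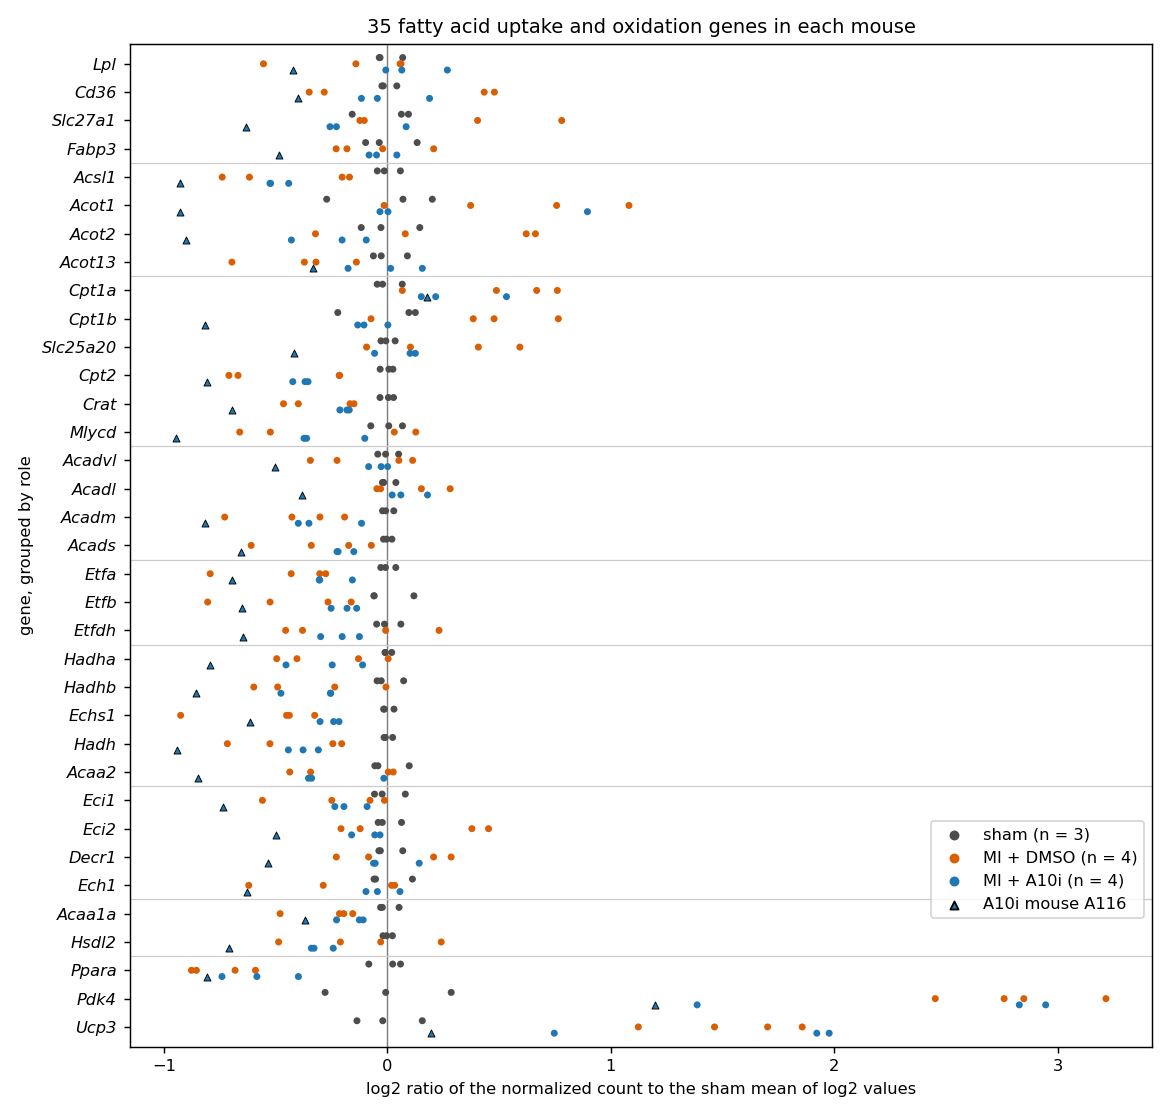
Each point is 1 mouse, and the horizontal axis gives the log2 ratio of its normalized count to the mean of the 3 sham mice, for the 35 genes grouped by role. Most points lie between -1 and 1, Pdk4 and Ucp3 lie far to the right in all or most infarcted mice, and A10i mouse A116 (triangles) was the lowest A10i mouse in 34 of the 35 genes.

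The genes were expressed at very different levels in the healthy heart. Levels were compared per kilobase of exon, as normalized counts per kilobase in the 3 sham mice. The length is that of all annotated exons of a gene, which can exceed that of 1 transcript. It is 10478 bases for Lpl, whose longest coding transcript has 4115. For Fabp3 both lengths are 823 bases. The order below depends on this choice of length. Fabp3, the cytosolic carrier, stood first at 18910 ± 1591 (SD, n = 3), followed by Lpl, which encodes lipoprotein lipase, at 15620 ± 652. Acaa2, the last enzyme of the mitochondrial cycle, had 12660 ± 759, Cd36 11920 ± 307 and Acadl, the long-chain acyl-CoA dehydrogenase, 11910 ± 276, and the ranges of neighbours in this run of 3 overlapped. Ech1 (10450 ± 718) and Acadvl (9527 ± 312) came next, with ranges apart from each other and from their neighbours. At the other end stood Ppara (394 ± 19.9), Cpt1a (202 ± 8.35), Ucp3 (155 ± 15.98), Acot1 (89.8 ± 14.6) and Cpt1b (43.1 ± 5.53), whose ranges did not overlap with each other. Pdk4 held place 22 of 35 in sham mice, at 1383 ± 270 per kilobase. In DMSO mice its mean was 9812 per kilobase.

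Several of these levels are limited by how reads are assigned, which bears on the next results. Cpt1b (chromosome 15, 89416405 to 89425863, minus strand) encodes the muscle form of carnitine palmitoyltransferase 1, and is known as the main form of the adult heart. It had only 81 to 235 raw counts. Its exons share 2744 bases, 81.38% of its exon length, with Gm44502, a gene on the same strand that runs through it, and 91.1% of the 100-base stretches of its longest coding transcript also occur in that gene. Gm44502 itself had at most 1 count. Etfb shares 53.01% of its exon length with Gm45233 on the same strand. The fold changes of Cpt1b and Etfb thus rest on the remaining part of each gene.

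Processed pseudogenes held more counts than 2 of the genes they resemble. Hadhb (chromosome 5, 30155248 to 30184593, plus strand) encodes the beta subunit of the mitochondrial trifunctional protein, whose alpha subunit is Hadha. Of the 100-base stretches of its transcript, 52.8% also occur in Gm13910, an annotated processed pseudogene. In sham mice Hadhb had 6696, 6610 and 7178 normalized counts, and Gm13910 had 34325, 33976 and 34518. Hadhb thus held 16.3 to 17.2% of the sum of both in sham mice and 16.9 to 18.5% in the infarcted mice. The counts of Hadha were 5.63 to 6.00 times those of Hadhb in sham mice, but 0.966 to 0.977 times the sum. In the infarcted mice these ratios spread more widely, from 5.37 (A105) to 6.9 (A128) for Hadhb and from 0.987 (A105) to 1.19 (A129) for the sum. Fabp3 showed the same kind of split, with 28.8 to 29.9% of the sum of Fabp3 and Fabp3-ps1 in all 11 libraries. For both genes the share of the parent gene differed little between mice, and fold changes with the pseudogene counts added are given below beside the gene's own. Of the other genes, Acot1 and Acot2, paralogues on chromosome 12, share 16.5% and 17.1% of their 100-base stretches with each other, and Acaa1a shares 21.6% with Acaa1b, which had at most 26 counts. Acadvl overlaps Dvl2 on the opposite strand over 42.85% of its exon length. The strand setting of the counting is not given in the sources used here, but Dvl2 had at most 360 counts against at least 17819 for Acadvl.

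Ucp3 and Pdk4 are the genes that rose most, and their upstream sequences are shown for that reason. PPAR alpha and the oestrogen-related receptors, which are known to bind elements built on the half-site AGGTCA, are among the factors that act on genes of this pathway. The sequences come from RefSeq (GRCm38.p6), are written 5′ to 3′ on the strand of the gene, and run from 250 to 32 bases before the start site, with AGGTCA in capitals.
Ucp3, plus strand, chr7:100472741-100472959: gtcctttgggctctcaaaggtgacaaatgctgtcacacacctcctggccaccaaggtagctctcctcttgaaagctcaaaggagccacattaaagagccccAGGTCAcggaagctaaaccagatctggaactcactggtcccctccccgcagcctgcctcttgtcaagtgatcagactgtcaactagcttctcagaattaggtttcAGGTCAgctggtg
Pdk4, minus strand, chr6:5496310-5496528: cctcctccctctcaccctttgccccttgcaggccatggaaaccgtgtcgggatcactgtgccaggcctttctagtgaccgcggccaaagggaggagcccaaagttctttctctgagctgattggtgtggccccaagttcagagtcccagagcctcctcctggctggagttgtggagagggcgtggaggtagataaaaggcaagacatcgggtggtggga

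The Ucp3 window held AGGTCA at positions -149 and -44 from the start site, and the Pdk4 window held no match. Such windows, from 250 bases before to 50 bases after a start site, were given for 29 of the 35 genes, with 32 windows in all, and were searched on both strands. AGGTCA stood in 6 of these 32 windows (18.8%), against 16.3% of all 32851 windows in the table. The longer element TCAAGGTCA, which contains this half-site, stood in 0 of the 32 windows, against 0.423% of all windows. A pair of half-sites of the form AGGNCA, 1 base apart (a DR1 element), also stood in 0, against 0.381% of all windows. Besides Ucp3, the half-site was present in Cpt1a, Cd36, Acadm, Acadvl and Echs1, which are shown to set its context side by side, with the half-site or its reverse complement in capitals.
Cpt1a, plus strand, chr19:3323195-3323224: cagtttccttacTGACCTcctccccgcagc
Cd36, minus strand, chr5:17836107-17836136: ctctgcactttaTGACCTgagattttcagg
Acadm, minus strand, chr3:153944875-153944893: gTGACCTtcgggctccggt
Acadvl, minus strand, chr11:70015498-70015527: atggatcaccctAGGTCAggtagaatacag
Echs1, minus strand, chr7:140116487-140116516: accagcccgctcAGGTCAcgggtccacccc
These 6 genes did not share a direction after MI, as the values below show. The short windows hold only part of the regulatory sequence of a gene, and a match is a description of letters.

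After MI with DMSO, 1 of the 35 genes was called lower and 2 were called higher against sham. Among the 17117 genes tested, 9.6% were called lower and 12.9% higher, so that the share of called members (2.86% and 5.71%) was below that of all genes in both directions. At the wider threshold of 0.05, 9 members were lower and 3 higher, 25.7% and 8.57%, against 18.4% and 21.5% of all genes. The 4 DMSO and 3 sham mice did not overlap in 12 members that were lower and 3 that were higher, 34.3% and 8.57% of the members, against 23.6% and 25.1% of all genes. The log2 fold changes of the 35 genes ran from -0.75 to 2.82 with a median of -0.18, and 23 were below 0, whereas the median of all genes was 0.0021 with quartiles of -0.31 and 0.39. The median of the 35 genes was -0.0756 without A129 and -0.27 without A128.

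Pdk4 (ENSMUSG00000019577, chromosome 6, 5483351 to 5496309, minus strand) had 4770, 5845 and 3953 normalized counts in sham mice and 34530, 44550, 26237 and 32487 in DMSO mice. Every DMSO mouse was far above every sham mouse. Its log2 fold change was 2.82, a 7.08-fold rise, with a 95% confidence interval of 2.36 to 3.29 (edgeR's quasi-likelihood test, adjusted p = 4.398e-05).
Ucp3 (ENSMUSG00000032942, chromosome 7, 100472990 to 100486432, plus strand) encodes a mitochondrial carrier of muscle that rises with fatty acid supply. It had 540, 478 and 441 normalized counts in sham and 1577, 1756, 1056 and 1338 in DMSO mice. The groups were apart, and the log2 fold change was 1.55 (1.18 to 1.93, edgeR adjusted p = 0.0002768).
Ppara (ENSMUSG00000022383, chromosome 15, 85734983 to 85802819, plus strand) had 1425, 1535 and 1572 normalized counts in sham and 941, 835, 1003 and 822 in DMSO mice. Every DMSO mouse lay below every sham mouse, and the log2 fold change was -0.75 (-0.95 to -0.55, edgeR adjusted p = 0.0003514), that is 0.595 times the sham level.

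Among the uptake genes none passed in DMSO against sham, and the log2 fold changes lay between -0.13 (Lpl) and 0.28 (Slc27a1, a fatty acid transport protein). Cd36 had 42238, 42056 and 44047 normalized counts in sham and 57764, 33565, 59619 and 35169 in DMSO mice. A105 and A128 stood above every sham mouse and A127 and A129 below, and the fold change was 0.12 (-0.36 to 0.60, edgeR adjusted p = 0.6863). The same pair of DMSO mice was high in Slc27a1 (6372 in A105 and 8272 in A128, against 4484 in A127 and 4423 in A129) and in Acot2. Lpl had 159550, 159930 and 171570 in sham and 170690, 170190, 148390 and 111410 in DMSO mice, so that A129 was low. Fabp3 had a log2 fold change of -0.05 (-0.34 to 0.23), and of -0.07 (-0.36 to 0.23) with the pseudogene counts added.

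Of the genes of activation, Acsl1, the main long-chain acyl-CoA synthetase of the heart, had 26512, 27085 and 28478 normalized counts in sham and 23770, 16385, 24319 and 17830 in DMSO mice. The groups did not overlap, and the log2 fold change of -0.41 missed the threshold (-0.76 to -0.07, edgeR adjusted p = 0.05472). The thioesterases release free fatty acids from acyl-CoA in the cytosol (Acot1) and in the mitochondrion (Acot2 and Acot13). Acot1 had a log2 fold change of 0.59 (0.04 to 1.14, edgeR adjusted p = 0.08415), Acot2 of 0.31 and Acot13 of -0.37 (edgeR adjusted p = 0.03317), and none was called.

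The carnitine shuttle held members on both sides of 0. Cpt1a, the liver form of the gate enzyme, had 1618, 1522 and 1497 normalized counts in sham and 2455, 1618, 2167 and 2618 in DMSO mice. All DMSO mice were above the sham mice, A127 only just, and the log2 fold change of 0.52 (0.18 to 0.85) had an edgeR adjusted p of 0.02182. DESeq2's Wald test gave an adjusted p of 0.005315, and over all alternatives it lay between 0.001651 and 0.08043. Cpt2, the inner membrane enzyme, had 5582, 5432 and 5652 in sham and 4791, 3496, 4784 and 3398 in DMSO mice, a log2 fold change of -0.44 (-0.74 to -0.13, edgeR adjusted p = 0.02932). Slc25a20, the carrier between both enzymes, had 0.27, Crat, which makes acetylcarnitine, -0.29, and Mlycd, which removes the CPT1 inhibitor malonyl-CoA, -0.22, with edgeR adjusted p-values from 0.05669 to 0.3661. Cpt1b had 0.40 (-0.03 to 0.83) on its few counts.

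Within the mitochondrial cycle, no gene was called in DMSO mice. For the acyl-CoA dehydrogenases, which take the first 2 hydrogens at different chain lengths, the log2 fold changes were -0.09 for Acadvl (very long chains), 0.09 for Acadl (long chains), -0.40 for Acadm (medium chains) and -0.29 for Acads (short chains). Acadm and Acads did not overlap with sham, and Acadvl and Acadl did. The electron transfer flavoprotein accepts their electrons, and its subunit genes Etfa and Etfb had -0.44 and -0.42 (edgeR adjusted p = 0.02206 and 0.03465), while Etfdh, which hands the electrons to ubiquinone, had -0.13 (edgeR adjusted p = 0.5538). Echs1, the short-chain enoyl-CoA hydratase, had 8864, 8884 and 9153 normalized counts in sham and 7157, 6559, 6617 and 4722 in DMSO mice. Its log2 fold change of -0.52 (-0.82 to -0.22) stood just outside the threshold (edgeR adjusted p = 0.01236), and it passed with DESeq2 (adjusted p = 0.0009745), with a range from 0.0009745 to 0.0505 over all alternatives. Hadh, the short-chain 3-hydroxyacyl-CoA dehydrogenase, had -0.41 (edgeR adjusted p = 0.03186), Hadha -0.25, Hadhb -0.32 and Acaa2 -0.18. With the counts of Gm13910 added, Hadhb had -0.425 (-0.76 to -0.09, edgeR adjusted p = 0.04468).

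The auxiliary enzymes, which reshape the double bonds of unsaturated fatty acids, lay between -0.21 (Eci1) and 0.15 (Eci2), with Decr1 at 0.06 and Ech1 at -0.20, and none passed in DMSO against sham. Of the peroxisomal genes, Acaa1a, a thiolase, had -0.26 (edgeR adjusted p = 0.03963) and Hsdl2, whose exact substrate is not settled, -0.10 (edgeR adjusted p = 0.6247). DESeq2's Wald test called 5 members lower and 3 higher, 14.3% and 8.57%, against 11.4% and 15.2% of all genes. Those called lower were Acadm, Etfa, Echs1 and Hadh beside Ppara, and those called higher were Cpt1a beside Pdk4 and Ucp3.

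**Figure D2:**
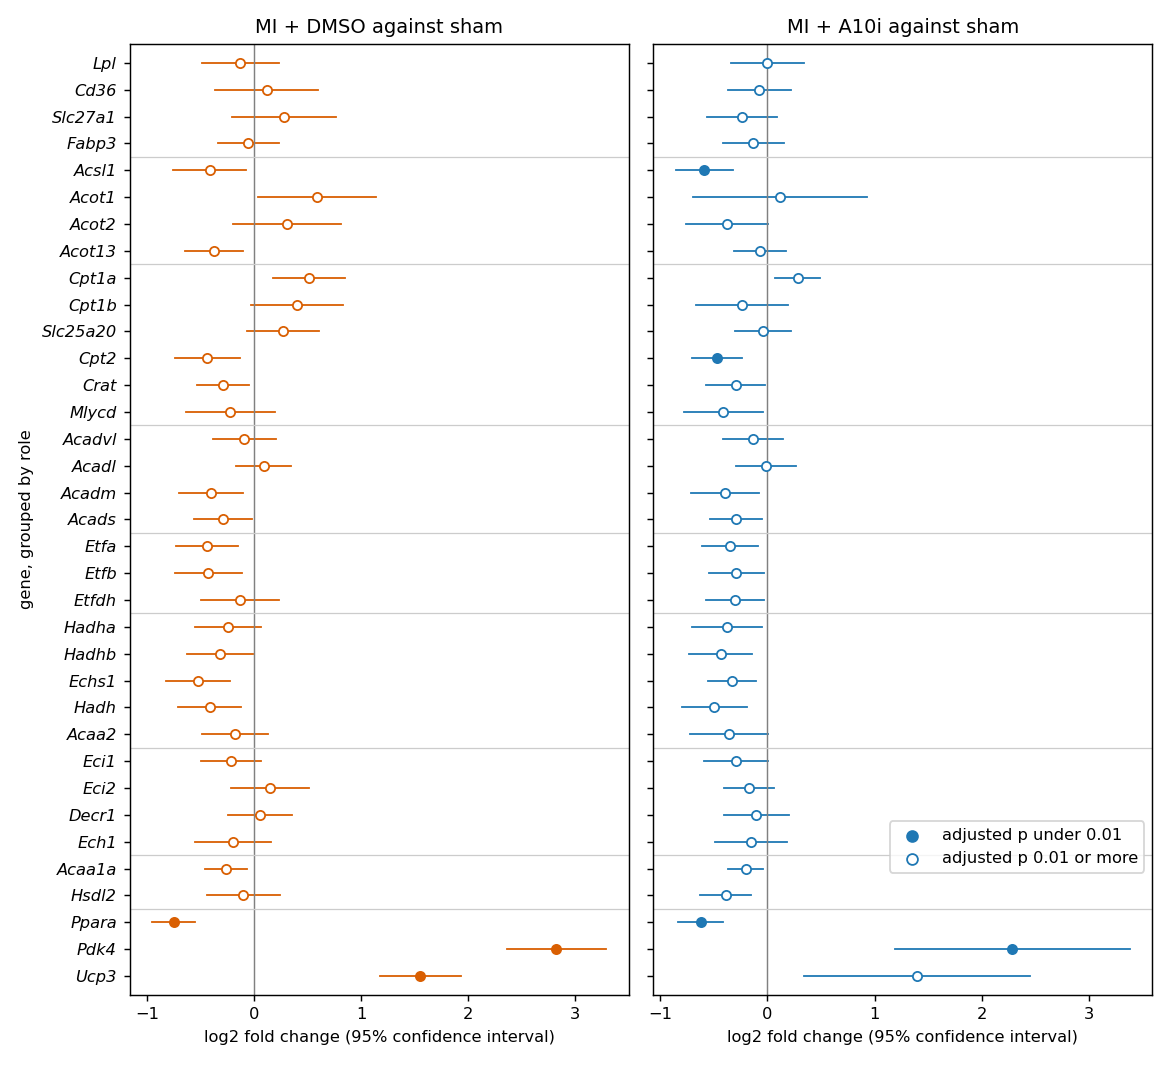
Points are the log2 fold changes of the 35 genes against sham on the TMM scale with 95% confidence intervals, for 4 DMSO mice (left) and 4 A10i mice (right), each against 3 sham mice. Filled points passed an adjusted p-value of 0.01 (3 genes on the left and 4 on the right), and the interval of Pdk4 is much wider in A10i mice (1.19 to 3.38) than in DMSO mice (2.36 to 3.29).

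In A10i mice, 3 members were called lower and 1 higher against sham, 8.57% and 2.86%, against 9.11% and 13.7% of the 16971 genes tested. At a threshold of 0.05, 9 were lower and 3 higher, against 17.6% and 21.7% of all genes. The groups did not overlap in 17 members that were lower, 48.6%, and in 3 that were higher, 8.57%, against 23.5% and 24.8% of all genes. The log2 fold changes ran from -0.62 to 2.29 with a median of -0.29, and 31 of 35 were below 0, against a median of -0.0054 for all genes. DESeq2 called 7 lower and 1 higher, against 10.4% and 14.8% of all genes.

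Ppara had 863, 1145, 1007 and 904 normalized counts in A10i mice, all below the sham mice. Its log2 fold change was -0.62 (-0.83 to -0.41, edgeR adjusted p = 0.0009717).
Acsl1 (ENSMUSG00000018796, chromosome 8, 46471037 to 46536051, plus strand) had 14356, 20138, 19002 and 19038, also below every sham mouse, and the log2 fold change was -0.59 (-0.86 to -0.32, edgeR adjusted p = 0.003779).
Cpt2 (ENSMUSG00000028607, chromosome 4, 107903981 to 107923610, minus strand) had 3177, 4303, 4344 and 4143, and its log2 fold change was -0.47 (-0.71 to -0.24, edgeR adjusted p = 0.005792).
The estimates of these 3 genes in DMSO mice were -0.75, -0.41 and -0.44. Passing in one comparison and missing in the other is no difference between A10i and DMSO, for which the direct comparison is given below. The calls of Acsl1 and Cpt2 were lost without any 1 sham mouse or A120, with log2 fold changes of -0.615 to -0.56 for Acsl1 and -0.49 to -0.46 for Cpt2 and adjusted p-values up to 0.0225 and 0.02773. They were also lost in 1 fit of all 11 libraries (adjusted p = 0.01319 and 0.02286), and that of Cpt2 with library size alone (-0.29, adjusted p = 0.01625). Over the alternatives Ppara kept an adjusted p-value of at most 0.007241.

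Pdk4 split the A10i mice. It had 11005 normalized counts in A116 and 12534 in A119, but 36953 in A117 and 34052 in A120. The first 2 mice lay between the sham and the DMSO mice, and the last 2 lay within the range of the DMSO mice. The log2 fold change against sham was 2.29 (1.19 to 3.38, edgeR adjusted p = 0.006797), and its adjusted p-value ran up to 0.04839 over the alternatives.
Ucp3 split the same mice the same way, with 556 in A116 and 814 in A119, against 1909 in A117 and 1837 in A120. A116 was close to the highest sham mouse (540), and A117 and A120 exceeded every DMSO mouse. Its log2 fold change of 1.40 (0.35 to 2.45) did not pass (edgeR adjusted p = 0.04285).
Acadl did not share this split. It had 18340 in A116, 27056 in A117, 24907 in A119 and 24245 in A120, with A116 alone standing low. Cpt1a had 1747, 2235, 1716 and 1795 in the same order, all above the sham mice, and a log2 fold change of 0.28 (0.07 to 0.49, edgeR adjusted p = 0.03706), with A117 standing high. A117 was also the A10i mouse with the highest adipocyte markers, such as Adipoq at 96.9 normalized counts against 14.8 to 41.6 in the other A10i mice, and the part of this in its values was not tested.

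**Figure D3:**
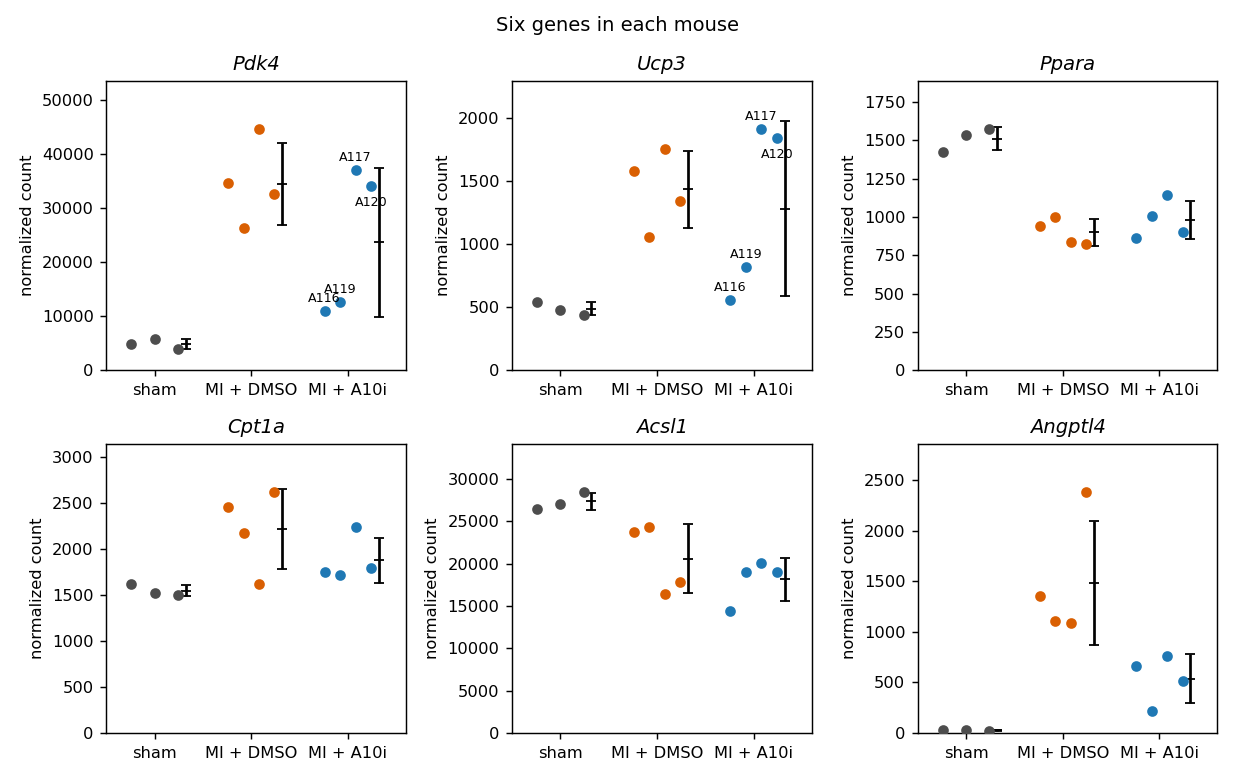
Normalized counts of 6 genes in each mouse are plotted on linear axes from 0, with the mean and SD of each group beside the points. In Pdk4 and Ucp3 the labelled A10i mice form a low pair (A116 and A119) and a high pair (A117 and A120), whereas Ppara stands lower in all 8 infarcted mice than in the 3 sham mice.

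The other genes in A10i mice stood as follows. In the uptake group Lpl had -0.0005 (-0.34 to 0.34), Cd36 -0.07, Fabp3 -0.13 and Slc27a1 -0.24 on the log2 scale, and none was called. Of the thioesterases, Acot1 had 184, 649, 341 and 350 normalized counts, so that its fold change of 0.12 (-0.70 to 0.93) was poorly determined, Acot2 had -0.38 and Acot13 -0.07. Mlycd had -0.41, Crat -0.30, Slc25a20 -0.04 and Cpt1b -0.24. The steps from hydration to thiolysis had a median of -0.38, with Hadh at -0.49 (edgeR adjusted p = 0.01587), Hadhb at -0.44 (0.02587 in the same test), Hadha at -0.38, Acaa2 at -0.36 and Echs1 at -0.33. With the counts of Gm13910 added, Hadhb had -0.52 (-0.81 to -0.22, edgeR adjusted p = 0.01197). Acadm had -0.40, Acads -0.30, Acadvl -0.14 and Acadl -0.01, and Etfa, Etfdh and Etfb had -0.35, -0.30 and -0.29. The auxiliary genes lay between -0.29 (Eci1) and -0.10 (Decr1), Acaa1a had -0.20, and Hsdl2 had -0.39 (edgeR adjusted p = 0.01464). Outside the regulators, only Acot1 and Cpt1a had estimates above 0, and only Acsl1 and Cpt2 passed the threshold.

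One mouse weighed heavily on these values. A116 was the lowest of the 4 A10i mice in 34 of 35 genes and the lowest of all 8 infarcted mice in 27. The median over the 35 genes of its log2 ratio to the sham mean was -0.65, against -0.10 in A117, -0.16 in A119 and -0.225 in A120. Among the DMSO mice, this median was 0.03 in A105 and 0.0041 in A128, but -0.29 in A127 and -0.405 in A129. A116 also had the lowest level of sarcomere transcripts of the 11 mice (60.5% of sham), followed by A129 (60.9%) and A128 (68.3%). Its summed macrophage markers (37210) and fibroblast markers (233600) were the highest of the 11 mice. Col1a1 (60590), Col1a2 (48130) and Col3a1 (76880) made up most of the fibroblast sum, and Lyz2 had 17100 normalized counts. All markers of these 2 lists were highest in A116 except Cd14, Pdgfra, Dcn, Lum and Dpt. Dcn had 14900 in A116 against 15640 to 19720 in the other A10i mice. The part of these marker levels in the values of A116 was not tested. Without A116, edgeR called 8 members lower and 0 higher in A10i against sham, and the median of the 35 genes was -0.17. More members were called at smaller fold changes, as for Hadh (-0.37, edgeR adjusted p = 0.0003646) and Hsdl2 (-0.30, edgeR adjusted p = 0.001157), and Pdk4 was no longer called (2.53, edgeR adjusted p = 0.02027). The share of all genes called without A116 was not taken, so these calls are not read as a result about the members.

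The share of all counts that fell on the 35 genes was 1.891 to 2.014% in sham, 1.886 to 2.323% in DMSO and 1.627 to 2.353% in A10i mice. Leaving out Pdk4, it was 1.874 to 2.00%, 1.743 to 2.217% and 1.58 to 2.208%. Both infarcted groups thus spread to each side of the sham mice.

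Relative to the sarcomere transcripts, the medians against sham lay on the other side of 0. Here the geometric mean of the 16 sarcomere genes replaced the TMM-scaled library size as the scale of each library, so that a gene that keeps pace with the sarcomere has a value near 0. In DMSO against sham, 0 members were lower and 11 higher (31.4%), against 1.28% and 36.7% of all genes, and the median was 0.32 where that of all genes was 0.50. In A10i against sham, 0 were lower and 9 higher (25.7%), against 0.701% and 30.5% of all genes, and the medians were 0.15 and 0.45. These counts rested on all 3 sham mice, since the number of higher calls was 3 without S1, 4 without S2 and 3 without S3 in DMSO mice, and 1, 0 and 0 in A10i mice. The share of higher members was therefore close to that of all genes, and their medians lay below the general shift of this scale. Relative to that shift the members stood at -0.18 in DMSO and -0.30 in A10i mice, against -0.18 and -0.29 on the TMM scale. A change of scale moves all genes by nearly the same amount, so this likeness was fixed in advance and nothing is drawn from it. On the sarcomere scale 33 and 30 of the 35 genes had estimates above 0, for example Cpt1a with 1.03 in DMSO (edgeR adjusted p = 0.001576) and 0.74 in A10i mice (edgeR adjusted p = 0.00191).

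By step of the pathway, the values relative to the sarcomere were as follows, with no test between steps. The median of all genes on this scale was 0.50 in DMSO and 0.45 in A10i mice. In DMSO mice, the sarcomere-scaled log2 median was 0.52 for the 4 uptake genes, 0.52 for the 6 genes of the carnitine shuttle, 0.46 for activation and thioesterases and 0.42 for the auxiliary enzymes. It was 0.30 for the acyl-CoA dehydrogenases, 0.17 for the steps from hydration to thiolysis and 0.05 for the electron transfer flavoprotein genes. The 2 peroxisomal genes had a median of 0.32. In the peroxisomal group, the hydration to thiolysis group and the electron transfer group 0 genes were called. In A10i mice the order was another one, with 0.34 for uptake, 0.27 for the auxiliary enzymes, 0.22 for the acyl-CoA dehydrogenases and 0.21 for activation and thioesterases. Then came 0.17 for the carnitine shuttle, 0.15 for the peroxisomal genes, 0.14 for electron transfer and 0.06 for hydration to thiolysis. In DMSO mice Echs1 had -0.04 and Etfa 0.05 on this scale, and Ppara -0.25 (edgeR adjusted p = 0.1119), against 0.50 for the median of all genes. The fall of Ppara on the TMM scale was thus not called when sarcomere transcripts were the scale, but Ppara stood below the general shift of this scale. Pdk4 (3.31) and Ucp3 (2.04) were called higher in DMSO mice on the sarcomere scale too, and in A10i mice with 2.71 and 1.82 (edgeR adjusted p = 0.006119 and 0.005224). With all 3 sham mice, the called genes besides these in DMSO mice were Lpl, Fabp3, Acot1, Cpt1a, Cpt1b, Slc25a20, Acadl, Eci2 and Decr1, and in A10i mice Lpl, Cd36, Acot13, Cpt1a, Slc25a20, Acadvl and Acadl. Of these, Lpl (0.35) and Fabp3 (0.44) in DMSO mice, and all but Cpt1a in A10i mice, lay below the median of all genes. Lpl, Cd36 and Cpt1a are also expressed by other cell types of the heart. With the summed counts of the 16 genes as the scale, 21 and 13 members were higher, and with 10 calcium handling genes 12 and 3, so that the numbers depend on which cardiomyocyte transcripts set the scale. The median of all genes was 0.70 and 0.55 with the summed counts, and 0.46 and 0.29 with the calcium handling genes. The share of all genes called on these scales was not taken.

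**Figure D4:**
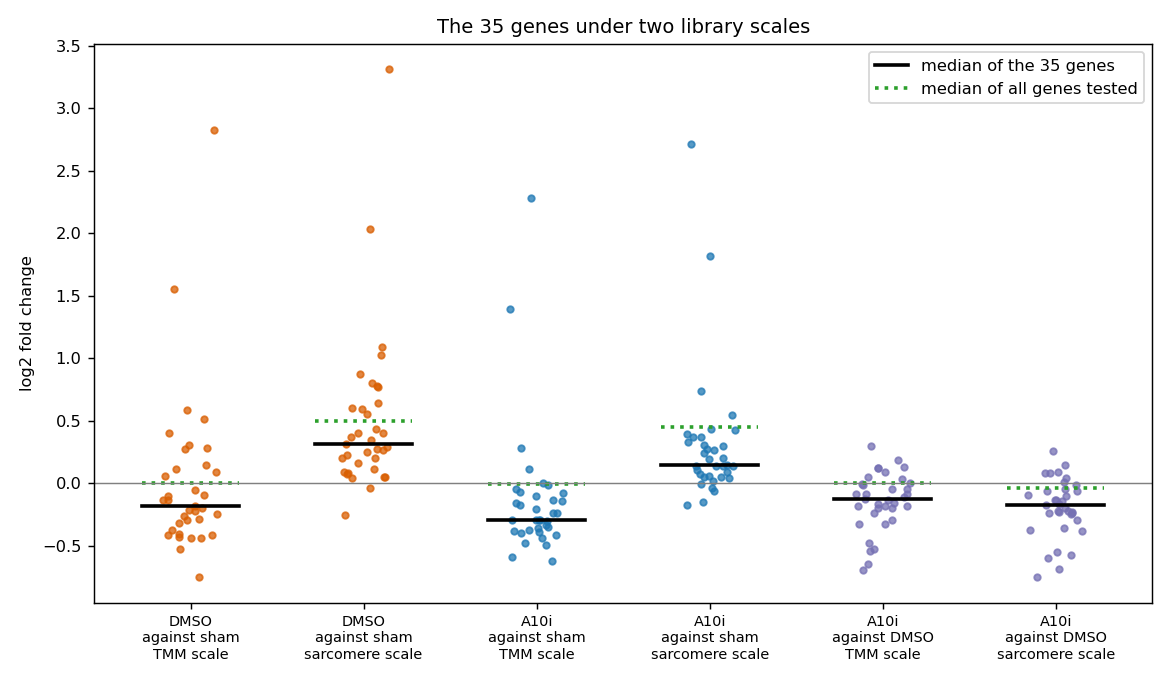
Each point is 1 of the 35 genes, placed by its log2 fold change in the 3 comparisons on the TMM scale and on the sarcomere scale, with the median of the 35 genes (black line) and of all genes tested (dotted line). In both comparisons with sham the median of the 35 genes lies below 0 on the TMM scale and above 0 on the sarcomere scale, where it is below that of all genes (0.32 against 0.50 in DMSO and 0.15 against 0.45 in A10i mice).

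Between A10i and DMSO mice, none of the 35 genes differed at an adjusted p-value under 0.01. With edgeR 0 members were lower and 0 higher, against 0.0% of the 16792 genes tested in each direction, and with DESeq2 again 0 and 0, against 0.678% lower and 0.573% higher among all genes. Before adjustment, 3 members had p-values under 0.05 and were lower (8.57%) and 0 higher, against 6.73% and 7.1% of all genes. In no member were the 4 A10i mice apart from the 4 DMSO mice, against 4.11% of all genes lower and 4.01% higher. The log2 fold changes ran from -0.69 to 0.30, with a median of -0.12 and 26 of 35 below 0, and the median of all genes was 0.0034. On the sarcomere scale 0 were called as well, against 0.0% of all genes, and at an unadjusted p-value under 0.05 there were 5 lower and 0 higher, against 3.72% and 3.19% of all genes.

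The 3 genes with an unadjusted p-value under 0.05 stand at separate steps. Acot2 had 3829, 1935, 3721 and 2556 normalized counts in DMSO and 1294, 2265, 2102 and 1796 in A10i mice. Its log2 fold change was -0.69 (-1.23 to -0.15, edgeR adjusted p = 0.2506). Cpt1b had 246, 201, 189 and 138 in DMSO and 82.1, 135, 132 and 145 in A10i mice, with -0.65 (-1.13 to -0.16, edgeR adjusted p = 0.2324) on the part of the gene that was counted. Slc27a1 had a log2 fold change of -0.52 (-1.02 to -0.02, edgeR adjusted p = 0.3392). In all 3 genes the groups overlapped.

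For the genes that moved after MI, the direct comparison was wide for some and narrow for others. Pdk4 had -0.54 (-1.42 to 0.34) and Ucp3 -0.16 (-0.97 to 0.66), so that both a clear reduction and a moderate rise lay within the intervals. Ppara had 0.12 (-0.12 to 0.37), Acsl1 -0.18 (-0.56 to 0.20), Cpt2 -0.04 (-0.38 to 0.30) and Cpt1a -0.24 (-0.57 to 0.10). For the acyl-CoA dehydrogenases the intervals lay between -0.44 and 0.38, and the estimates between -0.11 and 0.0023. Peroxisomal Acaa1a had the narrowest interval, 0.05 (-0.16 to 0.27). A p-value above the threshold does not show that the groups are alike. Without A116 the median over the 35 genes was -0.0013 in place of -0.12.

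**Figure D5:**
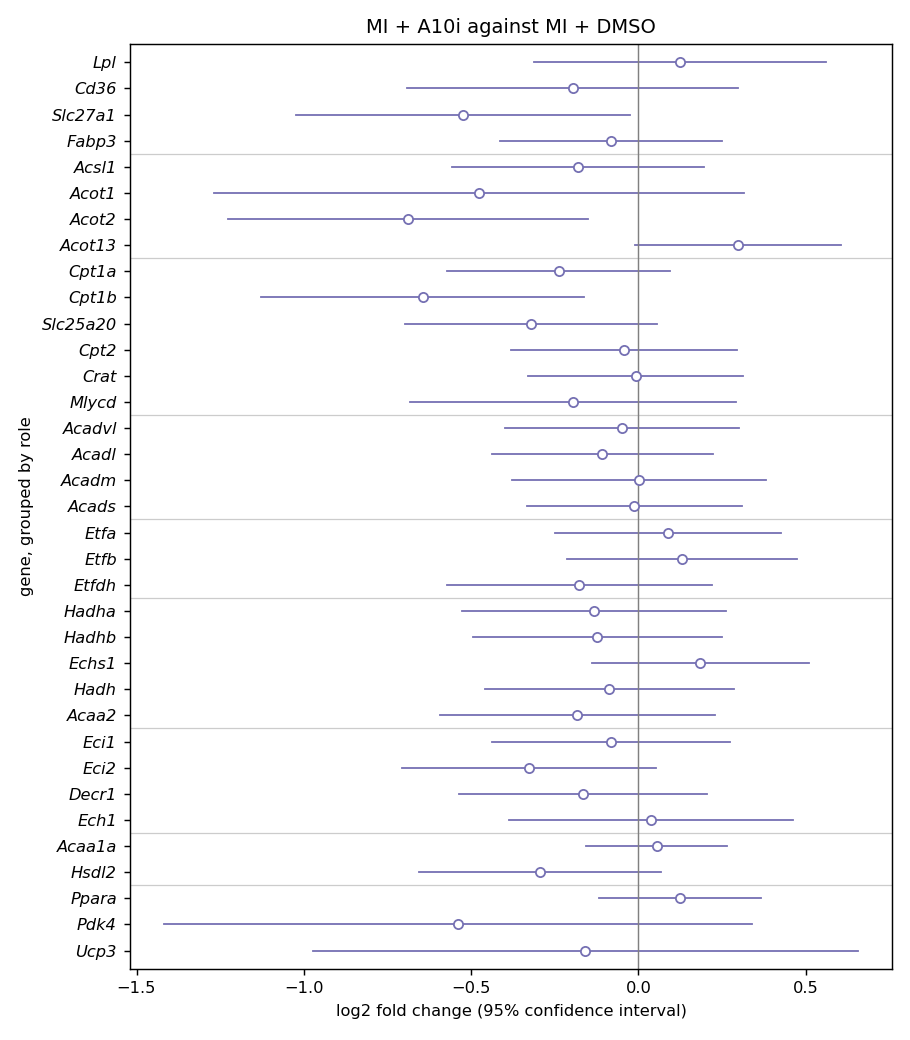
Log2 fold changes of the 35 genes between 4 A10i and 4 DMSO mice on the TMM scale, with 95% confidence intervals, grouped by role. None passed an adjusted p-value of 0.01, and the intervals are widest for Pdk4 (-1.42 to 0.34), Ucp3 (-0.97 to 0.66) and Acot1 (-1.27 to 0.32).

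Other genes of the pathway were taken from 6 lists of 82 genes. Of the 81 that were tested, 21 were lower and 9 higher in DMSO against sham, 20 lower and 9 higher in A10i against sham, and 0 differed between A10i and DMSO. Among all genes, 9.6% were lower and 12.9% higher in DMSO, 9.11% and 13.7% in A10i mice, and 0.0% differed between A10i and DMSO. The list of other mitochondrial oxidation genes had 8 of 15 lower and 0 higher in DMSO mice, and 8 lower and 1 higher in A10i mice. Among the 16 other regulators, 4 were lower and 3 higher in DMSO mice, and 6 lower and 2 higher in A10i mice. The uptake and lipolysis list (17 genes) had 2 lower and 3 higher, and 1 lower and 4 higher, in the same order. Activation and thioesterases (11 genes) had 3 and 3, and 2 and 2, peroxisomal oxidation (13 genes) 1 lower, and 2 lower, and malonyl-CoA and storage (9 genes) 3 lower, and 1 lower.

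The other genes with the smallest adjusted p-values were named by a fixed rule, 3 in each direction. Angptl4, a secreted inhibitor of lipoprotein lipase and a target of PPAR, had 29.9, 23.9 and 22.7 normalized counts in sham, 1357, 1085, 1111 and 2382 in DMSO and 659, 764, 214 and 509 in A10i mice. The 3 groups did not overlap. Its log2 fold change against sham was 5.86 in DMSO (edgeR adjusted p = 4.398e-05) and 4.40 in A10i mice (edgeR adjusted p = 0.000523), and -1.46 between A10i and DMSO (unadjusted p = 0.00323, edgeR adjusted p = 0.1475). The A10i pair with low Pdk4, A116 and A119, was not the low pair in Angptl4.
Plin2, which coats lipid droplets, had 1053, 1061 and 1061 in sham and 3128, 2550, 2514 and 4200 in DMSO mice (log2 fold change 1.55, edgeR adjusted p = 0.000396). In A10i mice Plin2 had 2564, 2589, 1690 and 1944, and it was called higher there too (1.06, edgeR adjusted p = 0.0009842). Acot9, a mitochondrial thioesterase, was the third to rise in DMSO mice (0.97, edgeR adjusted p = 0.0006469). It had 539 to 640 normalized counts in A10i mice against 392 to 443 in sham. In A10i mice the genes named by the rule as higher besides Angptl4 were Ucp2, a carrier of many cell types including leukocytes (0.79, edgeR adjusted p = 0.0001624), and Pdk3 (1.48, edgeR adjusted p = 0.0003891). In DMSO mice Ucp2 had 2413 to 3581 normalized counts against 1847 to 1913 in sham, and Pdk3 149.9 to 282 against 64.95 to 83.2.
Sirt3, the mitochondrial deacetylase, fell in both, by 0.93 in DMSO and by 0.69 in A10i mice on the log2 scale (edgeR adjusted p = 0.0002565 and 0.0004057). In DMSO mice Acot11 (-0.87, edgeR adjusted p = 0.0003806) and Vldlr, a receptor of triglyceride-rich lipoproteins (-0.93, edgeR adjusted p = 0.0004277), also fell. In A10i mice Acad12 (-1.25, edgeR adjusted p = 0.0005898) and Acad11 (-0.61, edgeR adjusted p = 0.0007), of the acyl-CoA dehydrogenase family, fell. The rule names genes for each comparison apart, so a gene named for 1 group can have moved in the other too. Acad12 had 969.5 to 1878 normalized counts in DMSO mice against 3462 to 3583 in sham, and Acad11 2293 to 3771 against 4964 to 5104. Vldlr had 5262 to 7755 in A10i mice against 10410 to 11930 in sham, and Acot11 690.5 to 972 against 1135 to 1276.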

How the data were processed

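Poly(A) RNA of 11 hearts was sequenced from strand-specific libraries as paired 100-base reads. Per the labels and the study's methods, the authors aligned reads with GSNAP to mm10 and deposited raw counts of uniquely aligned reads per Ensembl gene from featureCounts (2.0.1). The strand setting is not given in the sources used here. Of 55513 rows, 92 spike-in rows (14 to 55 counts per library) were left out.

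Counts were tested with edgeR (4.0.16, R 4.3.3) by filterByExpr, TMM scaling and a robust quasi-likelihood fit of each pair of groups, with Benjamini-Hochberg adjustment over all tested genes and a threshold of 0.01. The scripts were tested on simulated data. Alternatives used DESeq2 (1.42.0), limma-voom (limma 3.58.1), other scalings and filters, 1 fit of 11 libraries, and each mouse left out. The sarcomere scale used the geometric mean of 16 genes. All 35 genes are accounted for by role, and of 82 other pathway genes the 3 higher and 3 lower with the smallest adjusted p-values are named. The members and lists were chosen with earlier results of these data known. Whether mice of a group shared a litter or operation day is not stated, so p-values measure the spread between these samples.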

Additional observations from a re-analysis of the deposited data

Results flagged for a closer look

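In groups of 4 mice, the gap of the highest or lowest mouse to its neighbour was compared with the whole range of the group for the 35 genes, and in 6 of 70 groups that share exceeded Dixon's 95% limit. Chance alone flags about 1 in 20 independent groups. The 70 groups are the 35 genes in the same mice and are not independent, so the number of flags cannot be set against this rate. All 6 were A10i groups. A116 was the low mouse in 5 of them. Crat had 8427 normalized counts in A116 against 11790 to 12140 in the other A10i mice (gap over range 0.92). Acads had 3149 against 4237 to 4463 (0.851), and Cpt2 had 3177 against 4143 to 4344 (0.849). Cpt1b had 82.1 against 132 to 145 (0.835), and Acadvl had 18070 against 24140 to 25600 (0.831). The sixth was Cpt1a, with A117 high at 2235 against 1716 to 1795 (0.831).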

How the results depend on the processing

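No paired analysis was possible because the groups share no replicate numbers. In DMSO against sham, 1 member was called lower, with 3 without the filter on low counts, 5 with DESeq2, 2 in 1 fit of all libraries, 9 at a threshold of 0.05, and 1 to 3 with a mouse left out (3 without A129, 2 without A105), and 2 to 3 higher. In A10i against sham, 3 were lower, with 7 without the filter, 7 with DESeq2, 1 in 1 fit of all libraries, 9 at 0.05, and 1 to 8 with a mouse left out (8 without A116, 1 without A120 or any sham mouse). The 1 higher member became 2 with library size alone, 0 without the filter, 3 at 0.05, and 0 to 1 with a mouse left out (0 without A116, A120 or any sham mouse). Library size alone moved the median of all genes to 0.21 and 0.18 and that of the members to 0.02 in DMSO and -0.11 in A10i mice. Relative to sarcomere transcripts, summed counts gave 21 higher members in DMSO mice and a median of 0.25 in A10i mice, and calcium handling genes gave 1 lower, 3 higher and a median of -0.0122 in A10i mice. Leaving out a mouse gave 3 to 16 higher in DMSO (3 or 4 without a sham mouse) and 0 to 10 in A10i mice (0 or 1 without a sham mouse). Between A10i and DMSO, 0 members were called under every alternative. Of the single-gene values under the alternatives, 511 of 525, 494 of 525 and 560 of 560 kept their side of the threshold in the 3 comparisons. From a call in 1 direction to a call in the other, 0 went. The sign of some uncalled estimates did turn, as for Lpl in DMSO against sham, from -0.13 to 0.07 with library size alone. For the alternatives other than DESeq2 and the threshold of 0.05, the share of all genes called was not taken. Their counts are therefore not read as results about the members. The causes were not tested.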

Other observations

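Genes outside the naming rule were looked at after their values were seen. Ppargc1a, a coactivator of PPAR alpha, rose in DMSO mice (log2 fold change 0.94, edgeR adjusted p = 0.0007518), while Ppara itself fell. In A10i mice its log2 fold change was 0.65 (edgeR adjusted p = 0.02139). The pseudogene Gm13910 was called lower in A10i against sham by its own counts (-0.53, edgeR adjusted p = 0.009427), while Hadhb had -0.44 (edgeR adjusted p = 0.02587) and was called with DESeq2 (adjusted p = 0.006452), without the filter on low counts (0.009019) and without A116 (0.003187).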
